A study of Rattus norvegicus with 16 samples.

Results

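The 2-by-2 interaction of lipopolysaccharide (LPS) and apolipoprotein A-I (ApoA-I) was examined in cultured rat microglia, as the effect of ApoA-I in LPS-treated cells minus its effect in cells without LPS, on the log2 scale. All 16 libraries of the series entered this contrast, 4 in each of 4 groups. The cells were wild type primary rat microglia kept for 12 days in vitro, and this is what all 4 groups share. Control cells received neither agent. ApoA-I cells received ApoA-I protein at 100 ug/ml in the medium, LPS cells received LPS at 100 ng/ml for 20 hours, and cells with LPS and ApoA-I received both at these doses. No separate exposure time is given for ApoA-I, and nothing in the labels says that replicates came from separate cultures or animals. The p-values then cover only the spread among these libraries, which may be technical. A gene was described where it had at least 10 counts in at least 1 library of the LPS pair (LPS, LPS with ApoA-I) and in at least 1 library of the pair without LPS (Control, ApoA-I). Of 30560 genes listed, 11902 were tested and 11486 of these were described.

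Microglia are the resident macrophages of the brain. LPS comes from the wall of Gram-negative bacteria. It binds CD14 and the TLR4 receptor complex and switches on inflammatory genes through NF-kB and interferon regulatory factors, while genes of the resting state fall. ApoA-I is the main protein of high-density lipoprotein; it takes up cholesterol from cells through the transporter ABCA1 and can itself bind LPS. An interaction on the log2 scale is a ratio of fold changes: it is 0 where ApoA-I multiplies a transcript by the same factor with and without LPS, positive where the factor is larger with LPS, and negative where it is smaller. The same number is also the response to LPS when ApoA-I is added, minus the response to LPS alone.

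Libraries held from 12304916 to 17262383 estimated counts. The median SD of log2 CPM (counts set relative to TMM-scaled library totals) within a group was 0.128 for Control, 0.137 for ApoA-I, 0.132 for LPS and 0.110 for LPS with ApoA-I (n = 4 each). A set of 8 abundant genes that varied together within groups held from 1.61% to 12.8% of a library's counts, and 9.43% in ApoA-I 2 against 1.61% to 2.66% in the other ApoA-I libraries. In LPS 4 it held 2.08%, against 10.2% or more in each of LPS 1 to 3, and pairs of LPS libraries that include LPS 4 differed by a chi-square of 75.4 to 91.6 per degree of freedom, against 3.90 to 5.11 for the other pairs. The genes are listed by identifier, and no identifier could be matched to a name. Genes are therefore described by their levels in the 4 groups, 4 identifiers are printed, and the labelled cell type was not checked against microglial markers here.

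The effect of ApoA-I depended on LPS in 4824 of the 11486 described genes (42%), by the quasi-likelihood test of edgeR with a Benjamini-Hochberg adjusted p below 0.05. The interaction was positive in 2449 genes (21.3%) and negative in 2375 (20.7%). Its median was 0.64 log2 units among the positive genes (quartiles 0.43 and 1.04) and -0.53 among the negative ones (quartiles -0.88 and -0.36), against 0.04 over all described genes. Most of these differences were moderate: 656 positive (5.71%) and 490 negative genes (4.27%) passed 1 log2 unit, 136 (1.18%) and 127 (1.11%) passed 2 log2 units, and 32 and 25 passed 3. On log2(TPM + 1), 672 genes passed 1 log2 unit in place of 1146 in both directions together. Of the called genes 50.8% were positive with TMM scaling, 65.3% with scaling by library totals, and 61.5% on log2(TPM + 1) values, so the balance of the 2 directions depends on the scaling. No called gene changed sign with library totals, and 6 did on log2(TPM + 1). With the share of counts in the 8 abundant genes as a covariate, 4175 genes had an interaction. Without LPS 4 there were 4645, of which 4457 were among the 4824, and without ApoA-I 2 there were 4747, of which 4520 were. In bulk RNA, fewer cells of a kind and less RNA per cell cannot be told apart.

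**Figure D1:**
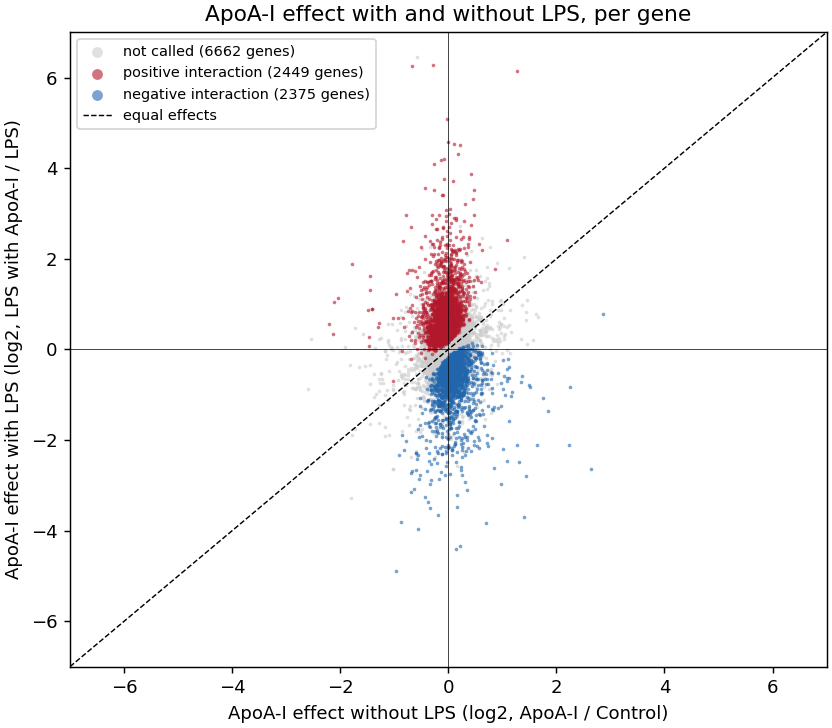
Each point is 1 of the 11486 described genes, with the ApoA-I effect without LPS (log2, horizontal axis) against the effect with LPS (log2, vertical axis). Genes with a positive (2449) or negative (2375) interaction are coloured, the dashed line marks equal effects, and the called genes spread along the vertical axis, with a median absolute effect of 0.52 with LPS and 0.11 without.

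The interaction came mostly from the side with LPS. In the called genes the median absolute ApoA-I effect was 0.52 log2 units with LPS and 0.11 without, and the effect with LPS was the larger of both in 4428 genes (91.8%) and the smaller in 396. Over all described genes the same medians were 0.30 and 0.11. In the whole set, ApoA-I changed 5981 genes (52.1%) with LPS, 27.1% up and 25% down, and 505 (4.4%) without. The libraries with LPS and those with LPS and ApoA-I did not overlap in 5571 described genes (48.5%), and Control and ApoA-I libraries did not overlap in 964 (8.39%). Of the genes with an interaction, 3741 (77.5%) had separate groups with LPS and overlapping groups without it, 433 had separate groups on both sides, 142 only without LPS, and 508 on neither side. The arrangement with separate groups on the LPS side alone was found in 43.4% of all described genes. The other arrangements made up 8.98%, 2.94% and 10.5% of the genes with an interaction. Of all 11486 described genes, 589 had separate groups on both sides, 375 only without LPS and 5540 on neither side.

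Genes were then divided by which of the 2 ApoA-I effects passed the test. In 4160 genes (86.2% of those with an interaction) ApoA-I had an effect with LPS and no called effect without it. Of these, 2139 were raised by ApoA-I in LPS-treated cells and 2021 were lowered. For the 2139 raised genes, the medians of the group means were 29.3 CPM for both Control and ApoA-I, 15.0 CPM for LPS and 23.8 CPM for LPS with ApoA-I. These medians were lowest with LPS alone, and with both agents they lay between LPS and Control. Single genes did not all follow the medians. Of all 2449 positive genes, 1386 had the LPS libraries below all others, and in 552 the libraries with both agents lay above all others. The choice of genes raised by ApoA-I with LPS itself favours a low LPS level. For the 2021 lowered genes, the medians were 47.3, 49.1, 75.2 and 53.8 CPM in the same order, highest with LPS alone. Of all 2375 negative genes, 1538 had the LPS libraries above all others, and in 471 the libraries with both agents lay below all others. A call on one side only is not a difference between the sides: in another 1456 genes the effect passed with LPS and not without, and the interaction did not pass.

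**Figure D2:**
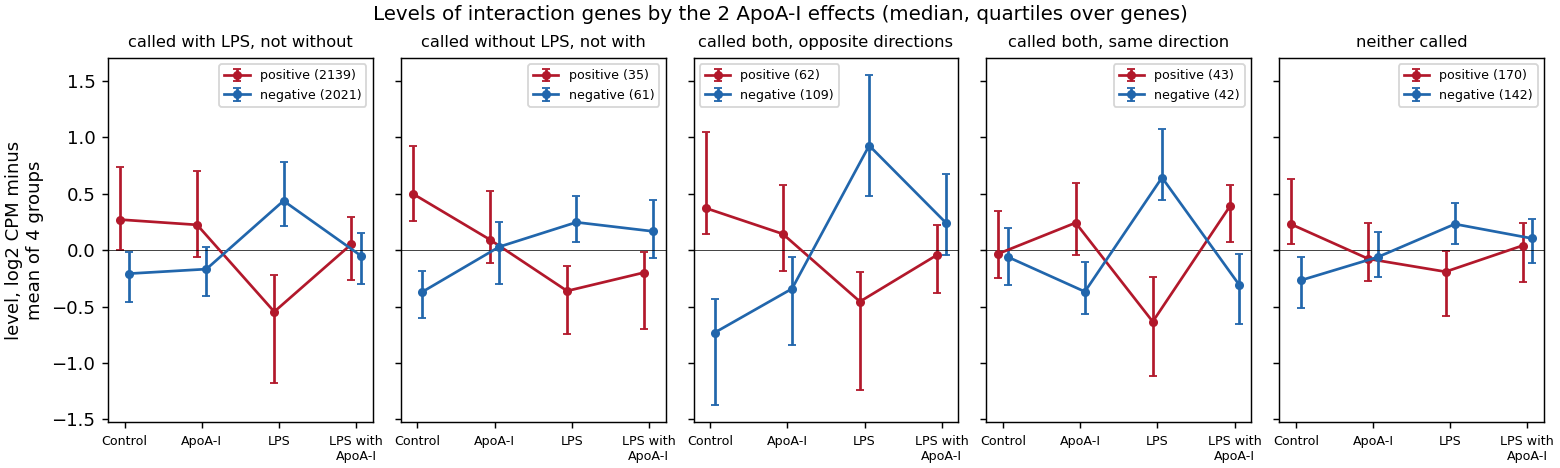
Levels of the genes with an interaction, in 5 panels by the calls of the 2 ApoA-I effects; the vertical axis is log2 CPM minus the gene's mean over the 4 groups, points are medians over genes and bars are quartiles over genes, with positive interactions in red and negative in blue. In the panel of 2139 positive and 2021 negative genes called with LPS and not without, the LPS group lies apart at -0.55 and 0.44, while Control and ApoA-I differ little.

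ApoA-I had effects in opposite directions with and without LPS in 171 genes. In 109 of them it raised the transcript without LPS and lowered it with LPS. The medians of the group means in these genes were 54.1 CPM for Control, 73.1 CPM for ApoA-I, 217 CPM for LPS and 148 CPM for LPS with ApoA-I. In the other 62 it lowered the transcript without LPS and raised it with LPS, with medians of 114, 98.5, 55.2 and 71.8 CPM in the same order. In both sets the median ApoA-I level without LPS lay on the side of the LPS level, and the median with both agents lay between LPS and Control. The first of these comparisons uses the Control libraries on both sides. Where the 2 effects are called in opposite directions the interaction passed in every one of these genes, which their signs nearly fix.

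Effects in the same direction were called on both sides in 194 genes, and the interaction passed in 85 of these and did not in 109. In the 43 with a positive interaction the median ApoA-I effect was 0.97 log2 units with LPS and 0.29 without, and in the 42 with a negative one -0.91 and -0.30. ApoA-I thus moved these transcripts one way in both states, and by more with LPS in the median gene. An ApoA-I effect without LPS and no called effect with it was found in 140 genes, and the interaction passed in 96. Of these 96, 61 were raised by ApoA-I without LPS (median 0.40 log2 units without, -0.07 with LPS) and 35 were lowered (median -0.36 without, 0.09 with LPS). In the remaining 312 genes neither effect passed by itself and only their difference did.

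The classes that need an effect without LPS rest on few calls, and single libraries moved them by over 1.5 times. The 505 genes called without LPS became 284, 325, 202 and 769 when Control 1 to Control 4 were left out in turn, and 185 when ApoA-I 1 was left out. The 171 genes with opposite effects became 97, 57, 274 and 50 without Control 1, Control 3, Control 4 and ApoA-I 1. The 85 with effects in one direction became 48, 46, 136 and 49 without the same libraries. The 96 called without LPS and not with it became 50, 57, 31 and 147 without Control 1 to Control 4, and 24, 58 and 153 without ApoA-I 1, ApoA-I 3 and ApoA-I 4. By contrast the count of all interaction genes stayed between 4487 and 4811 over the 16 fits that each left out 1 library.

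The contrast was also read as the difference between 2 LPS responses, one with ApoA-I and one without, which share no libraries. LPS changed 74.1% of the described genes without ApoA-I and 68.7% with it. Of the 4824 genes with an interaction, 2248 (46.6%) responded to LPS in the same direction with and without ApoA-I, and by less with it. Of these, 1143 were lowered by LPS, with a median response of -1.91 log2 units without and -1.04 with ApoA-I. The other 1105 were raised by LPS, with medians of 1.17 and 0.61. Of all described genes raised by LPS both with and without ApoA-I, 43.9% had an interaction of either sign, and of those lowered in both 43.8%. These shares are near the 42% over all described genes. The LPS response was larger with ApoA-I in 461 genes (9.56%): 234 raised by LPS, with medians of 0.38 without and 0.80 with ApoA-I, and 227 lowered, with medians of -0.49 and -1.01. It passed the test only without ApoA-I in 1026 genes (21.3%) and only with ApoA-I in 608 (12.6%). Of all 11486 described genes, LPS raised 912 and lowered 980 by a call only without ApoA-I. By a call only with ApoA-I, it raised 734 and lowered 547. The interaction passed in 60.3%, 48.6%, 49.6% and 44.6% of these sets in the same order, against 42% over all described genes. In 440 genes (9.12%) LPS had opposite effects in the 2 states, with 232 raised by LPS alone and lowered by it in the presence of ApoA-I, and 208 the reverse. The interaction passed in every described gene with opposite LPS effects, which their signs nearly fix. In 41 genes neither LPS response passed, which became 24 without ApoA-I 1. On log2(TPM + 1) the larger responses numbered 303, the opposite ones 292 and those with neither response 26. The interaction is made from the same libraries as both responses, so this split describes the called genes and is no further test.

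In some genes the combination of both agents gave a level outside that of every other group. All 4 libraries with LPS and ApoA-I lay above the 12 others in 861 described genes (7.5%), and 554 of these had an interaction, with a median absolute size of 0.50 log2 units. They lay below the 12 others in 631 genes (5.49%), of which 472 had an interaction, with a median of 0.59. Over all described genes 42% had an interaction. It was positive in 552 of the 554 and negative in 471 of the 472, signs which the position of the group with both agents nearly fixes. The LPS libraries stood apart more often, above all others in 1883 genes (16.4%) and below in 1652 (14.4%). Of these, 1538 and 1386 had an interaction, negative in all of the first and positive in all of the second, which the position of the LPS group nearly fixes. ApoA-I libraries lay above all others in 130 genes (1.13%) and below in 112 (0.975%), and Control libraries in 213 (1.85%) and 248 (2.16%).

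The called genes, 42% of those described, hold a large part of each library. The 2449 positive genes held a mean of 29.4% of counts for Control, 29.2% for ApoA-I, 14.2% for LPS and 22.2% for LPS with ApoA-I. The 2375 negative genes held 27.4%, 29.9%, 46.1% and 33.9% in the same order. The genes with larger interactions held less. The 490 genes with a negative interaction over 1 log2 unit held 2.25%, 2.34%, 2.0% and 2.39% of counts in Control 1 to 4, and 2.91%, 2.41%, 2.53% and 2.48% in ApoA-I 1 to 4. They held 11.4%, 11.7%, 11.5% and 12.5% in the LPS libraries, and 5.53%, 5.92%, 5.37% and 5.47% in those with LPS and ApoA-I. LPS 4 had the highest of the LPS values. All LPS libraries were thus above all others, and libraries with both agents lay between LPS and the groups without it, without overlap. The 656 genes with a positive interaction over 1 log2 unit held 6.25% ± 0.147 of counts for Control and 6.07% ± 0.290 for ApoA-I, against 1.45% ± 0.0959 for LPS and 3.69% ± 0.130 for LPS with ApoA-I (SD, n = 4 each). Here the order was turned around, and Control and ApoA-I overlapped. Since the genes were chosen on these libraries, the shares describe the sets and are not tested.

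**Figure D3:**
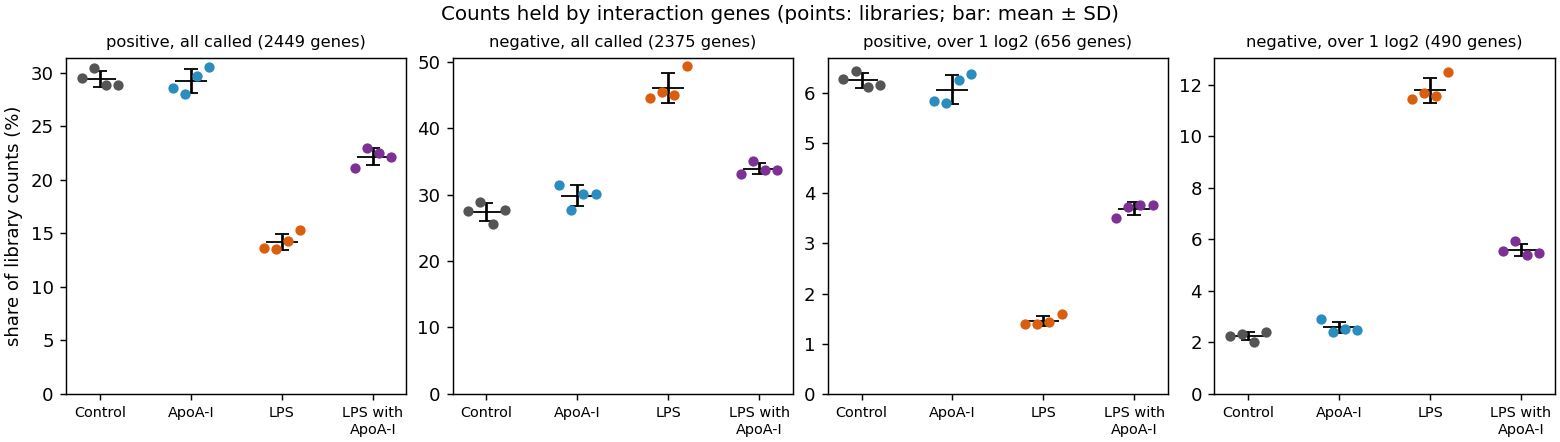
Share of each library's counts (percent, vertical axis, from 0) held by the genes with a positive or negative interaction, all called (2449 and 2375 genes) or over 1 log2 unit (656 and 490); points are libraries and bars the mean ± SD of 4. LPS with ApoA-I libraries lie between the LPS libraries and the groups without LPS in all 4 panels.

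The largest positive interaction by the naming rule was that of ENSRNOG00000039976. Its levels were 39.8, 37.4, 41.0 and 34.4 CPM in Control 1 to 4, and 28.8, 35.8, 44.4 and 42.8 CPM in ApoA-I 1 to 4. They were 0.188, 0.190, 0.369 and 0.250 CPM in the LPS libraries, and 6.12, 5.95, 6.90 and 6.42 CPM in those with LPS and ApoA-I. Control and ApoA-I overlapped, while LPS and LPS with ApoA-I were separate by more than 5 CPM, and no library with LPS reached the level of a library without it. The interaction was 4.59 log2 units (SE 0.32, edgeR adjusted p = 2.34e-10), from an ApoA-I effect of 4.58 (SE 0.29) with LPS and -0.01 (SE 0.10) without. The LPS level rests on 12 counts over 4 libraries (95% exact Poisson interval 6.20 to 21.0, which covers counting error only). With 2, 2, 5 and 3 counts in LPS 1 to 4, the gene met the count limit for the LPS pair only through libraries with both agents. At such low LPS levels the limit itself may favour genes that ApoA-I raises with LPS, which was not tested. On log2(TPM + 1) the interaction was 1.51, since the TPM values with LPS, 0.0775 ± 0.0236 (SD, n = 4), lie far below the added 1. As a difference of CPM it was 6.28 and did not pass (limma adjusted p = 0.188).

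ENSRNOG00000047734 followed the same order at a higher level. It had 462, 457, 495 and 380 CPM in Control 1 to 4, and 308, 344, 410 and 436 CPM in ApoA-I 1 to 4. With LPS it had 2.92, 2.56, 5.39 and 3.74 CPM, and with LPS and ApoA-I 58.2, 55.1, 77.8 and 64.4 CPM. The last 2 groups were separate, and Control and ApoA-I overlapped. ApoA-I raised the transcript 17.5-fold in LPS-treated cells, while without LPS the ratio of ApoA-I to Control was 0.835 and did not pass (edgeR adjusted p = 0.196). The interaction was 4.35 log2 units (SE 0.22, edgeR adjusted p = 1.32e-12).

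ENSRNOG00000057443 had the largest negative interaction by the rule. LPS libraries held 14061, 14729, 13772 and 14623 CPM, and libraries with LPS and ApoA-I held 1228, 1167, 954 and 1052 CPM, so that the mean with both agents was 0.0770 of that with LPS alone, with no overlap. Per length, its level fell from 4766 ± 345 to 404 ± 38.9 TPM (SD, n = 4 each). Without LPS it had 2.66, 2.45, 1.93 and 5.65 CPM in Control 1 to 4, and 11.4, 13.7, 3.45 and 4.83 CPM in ApoA-I 1 to 4. The last 2 of these lay below Control 4, and the first 2 above every Control library. The interaction was -5.10 log2 units (SE 0.40, edgeR adjusted p = 1.32e-09), from an effect of -3.70 (SE 0.24) with LPS and 1.40 (SE 0.33, edgeR adjusted p = 0.0192) without. The call without LPS was lost when any of 5 libraries was left out: the edgeR adjusted p was 0.0592, 0.0555 and 0.0820 when Control 1, 2 or 3 was left out, and 0.0895 and 0.0630 when ApoA-I 1 or 2 was. It was also lost with limma on log2(TPM + 1), with an adjusted p of 0.0552, and on CPM without log, with 0.999. The interaction passed in each of the 25 alternatives, with adjusted p from 8.29e-18 to 4.17e-08.

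ENSRNOG00000050647 had 766, 738, 847 and 798 CPM with LPS, and 45.5, 44.2, 30.3 and 36.9 CPM with LPS and ApoA-I. Its LPS level was thus 20.1-fold higher than that with both agents, and the groups were separate. Without LPS it had 2.72, 3.05, 1.65 and 3.14 CPM in Control 1 to 4, and 3.88, 2.34, 4.30 and 1.52 CPM in ApoA-I 1 to 4, which overlapped. The interaction was -4.55 log2 units (SE 0.32, edgeR adjusted p = 1.93e-10). Of its values, 18.8% were not whole numbers: 7785.99, 11466.99 and 9594.96 counts in LPS 2 to 4. Such values can arise where reads are divided between genes or gene copies. All of them lie close to whole numbers. How many reads this gene shares with others was not tested. In the other 3 named genes all values were whole.

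**Figure D4:**
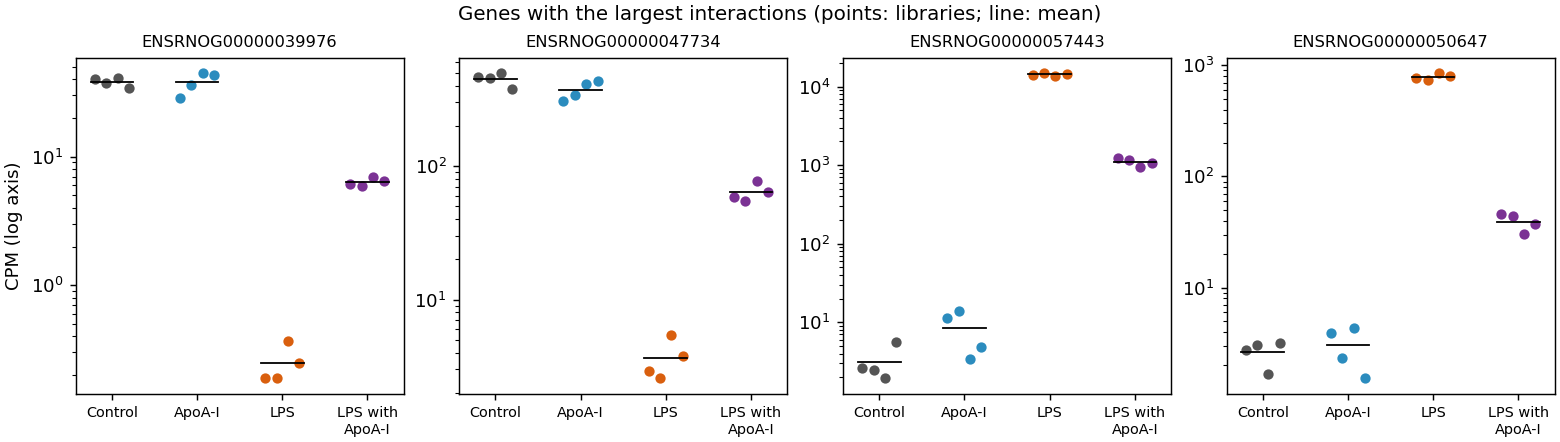
CPM of the 4 named genes in each of 16 libraries (points, log axis), with the group mean as a line. In the 2 genes on the left LPS lies lowest and in the 2 on the right highest, with LPS and ApoA-I together between LPS and the groups without LPS in all 4.

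How often an interaction was called depended on the level of the gene. Of 447 genes under 1 mean CPM, 9.62% were called, and the median SE of the interaction was 0.74 log2 units. The share rose through 30.1% of 1942 genes at 3 to 10 CPM and 49.5% of 3166 genes at 30 to 100 CPM to 72.1% of 538 genes at 300 CPM or more, where the median SE was 0.08. The median absolute interaction of the called genes was 2.47 log2 units in the lowest step, 0.44 at 100 to 300 CPM and 0.48 in the highest, so among low genes only large interactions were detectable at this depth. Positive calls were more frequent than negative ones at 10 to 30 CPM (823 and 430), and less frequent at 300 CPM or more (139 and 249). On log2(TPM + 1) and with library totals the share of positive calls was higher over all levels, as given above.

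**Figure D5:**
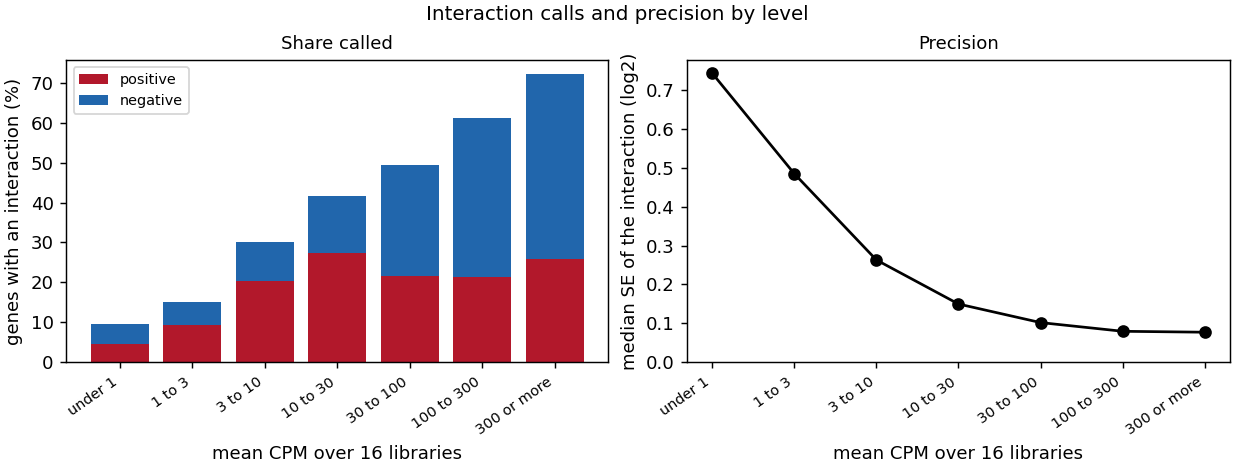
Left, the percent of genes with a positive or negative interaction by mean CPM over the 16 libraries (bars from 0); right, the median SE of the interaction in log2 units for the same levels. The share called climbs from 9.62% under 1 CPM to 72.1% at 300 CPM or more, while the median SE falls from 0.74 to 0.08.

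The log2 scale compares ratios, so the sign was also taken on differences of CPM. Of the 4824 called genes, 55 (1.14%) had the opposite sign as a difference of group means in CPM, 44 of them positive as a ratio and negative in CPM. In these 44 genes LPS alone had a median effect of -4.26 log2 units: their levels with LPS are low, so a large fold there can be fewer CPM than a modest fold at the high level without LPS. ENSRNOG00000047734 had the same sign on both scales: ApoA-I added 60.2 CPM with LPS, and the difference without LPS was -74.2 CPM. Over the genes negative on both scales, the interaction in CPM was concentrated: 10 of 2364 genes made up 25.3% of its sum, 77 made up 50%, and ENSRNOG00000057443 alone accounted for 6.76%. The genes positive on both scales were similar: 10 of 2405 made up 27.0%, 80 made up 50%, and the top gene accounted for 7.75%.

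The 416 tested genes set aside had too few counts in 1 pair for a ratio on that side. In 135 of them no library without LPS reached 10 counts, and ApoA-I lowered 94 and raised 9 of these in LPS-treated cells, with 32 not called. Over all described genes ApoA-I lowered 25% and raised 27.1% with LPS. The 135 genes entered the test only through their counts with LPS, so that choice may shape these directions, which are not read as a result. In 281 no library with LPS reached 10 counts, and ApoA-I without LPS lowered 2 and left 279 without a call. The interaction test passed in 56 of the 416, but these values depend on how few counts are handled and are not described. Just inside the limit, 49 of 356 genes with a highest count of 10 to 14 in their weaker pair were called, and just outside it 43 of 244 genes with 5 to 9.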

How the data were processed

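RNA from 16 libraries of primary rat microglia was sequenced; the authors deposited estimated counts per gene, of which 3.24% were not whole numbers by a tolerance of 0.005, and TPM values per gene. Per the submitters' processing notes, cutadapt 1.8.1, STAR 2.7.10b and RSEM 1.3.1 were used, with no role or order, and the build listed is mm10, although all 30560 identifiers carry the Ensembl rat prefix. No source used here gives the annotation, so how reads were assigned to single genes could not be checked.

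Deposited expected counts were rounded to whole numbers. Genes passed the filterByExpr step of edgeR (minimum count 10), all 16 libraries were fitted by group means with TMM scaling, and contrasts were tested by quasi-likelihood with edgeR version 4.0.16 (R version 4.3.3) on 12 residual degrees of freedom. Benjamini-Hochberg adjustment ran over all 11902 genes tested, the threshold was 0.05, and an SE is the absolute log2 value over the square root of F. Centred levels use log2 CPM with a prior count of 2. Alternatives used DESeq2 1.42.0 and limma 3.58.1, the latter on log2(TPM + 1) from the authors' deposited TPM values and on CPM without log. The described genes, classes and alternatives were chosen with earlier results of these data known. The planned gene lists and marker lists were not used, because 0 of the 30560 identifiers could be looked up among the 47357 genes of the RefSeq table (assembly GRCr8) used for names. The rule for named genes then gave the 2 largest positive and 2 largest negative interactions among 4303 genes that passed the test, reached a mean of 10 CPM in at least 1 group and had counts in every group. The split by LPS responses, the split by separated groups and the comparison of effective lengths were added later. Counts were simulated without an interaction for 11816 genes that passed the filter, and 200 genes were then changed. The changed genes were drawn only from those with a mean of at least 5 CPM. Among them the interaction test recovered 73.1% of 1.5-fold, 92.5% of 2-fold and 100% of 4-fold changes, with 6 false calls among all genes. Recovery in genes at lower levels was not simulated. Each gene was drawn independently, so variation that genes share within a library, as in the co-varying abundant genes, was not simulated. The false calls therefore do not measure errors from such variation. No 2 replicates were alike within counting noise, with a chi-square of 3.11 to 91.6 per degree of freedom in the 24 pairs.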

Additional observations from a re-analysis of the deposited data

Results flagged for a closer look

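The effect of ApoA-I with and without LPS differed by the interaction test itself in 4824 genes. The difference was 4.59 log2 units in ENSRNOG00000039976, 4.35 in ENSRNOG00000047734, -5.10 in ENSRNOG00000057443 and -4.55 in ENSRNOG00000050647 (n = 4 libraries per group, edgeR's quasi-likelihood test).

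Within groups of 4, each library's value was compared with the others for the named genes, the shares of counts and the share of counts held by 8 abundant genes that varied together, 36 groups in all. The share of the 8 genes in ApoA-I 2, at 9.43% against 1.61% to 2.66% in the other ApoA-I libraries, was the 1 value past the limit used. LPS 4 lay just inside it, with 2.08% against 10.2% or more in each of the other LPS libraries. LPS 4 also held the largest share of counts in the genes with a negative interaction, 49.4% against 44.5% to 45.5%; the part of the 8 genes in this was not tested. Chance flags about 1 in 20 such groups. With the log2 of this share as a covariate, chosen after seeing the data, 4175 genes had an interaction, 3949 of them among the 4824.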

How the results depend on the processing

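Over the 25 alternatives the number of genes with an interaction ranged from 4031 to 4912, within 1.5 times of 4824, and 77.4% to 96.9% of the 4824 were called again. Of the genes called again, 5 changed sign on CPM without log and none in the other alternatives. Negative interactions numbered 1553 with library totals and 1552 on log2(TPM + 1), in place of 2375. On log2(TPM + 1) interactions over 1 log2 unit numbered 672 (1146), larger LPS responses with ApoA-I 303 (461), opposite ones 292 (440) and genes with neither response 26 (41). Genes called without LPS (505) numbered 803 with DESeq2, 302 on log2(TPM + 1), 223 with the share of the 8 abundant genes as a covariate and 983 without Control 4 and ApoA-I 4 together; the last 2 alternatives were chosen after seeing the data. Opposite effects (171) numbered 286 with DESeq2, 79 on log2(TPM + 1), 93 on CPM without log, and 67 and 365 in the last 2. Genes called without LPS and not with it (96) numbered 48 on log2(TPM + 1), and 35 and 200 in the last 2; effects in the same direction (85) numbered 53, 44 and 161. The cause was not tested. Leaving out 1 library at a time gave 185 to 769 genes called without LPS, 50 to 274 with opposite effects, 46 to 136 with effects in the same direction and 24 to 153 called without LPS and not with it.

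Deviations of libraries with the same replicate number correlated by -0.199 to 0.190 over 24 pairs, and 5 of 16 libraries correlated best with their own number, so the numbers were not taken as pairs. With the replicate number as a block, 4759 genes had an interaction, 4656 of them among the 4824.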

Other observations

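The deposited counts and TPM values together give each gene's effective length, the length of its isoforms weighted by their estimated abundance, which shifts when a gene uses longer or shorter isoforms. It was compared in 6916 described genes with at least 50 counts and 5 TPM in every library, after subtracting each library's median, and varied by more than 0.02 log2 units between libraries in 4318. Of these 4318, 1951 had an interaction in counts. LPS against Control changed the effective length of 187 genes, and LPS with ApoA-I against ApoA-I that of 92. ApoA-I changed the effective length of 18 genes with LPS and of 0 without it (limma, adjusted p under 0.05, n = 4 per group throughout). The interaction in effective length passed in 0 genes by limma, and 275 of the 4318 had an unadjusted limma p under 0.05. A share of about 0.05 of the genes falls under that limit where there is no effect, so the 275 are not read as a set. Leaving out 1 library gave at most 4 genes for the interaction, without ApoA-I 2. The median SE of this interaction was 0.0154 log2 units. No dependence of isoform length on both agents was thus detectable with this test in genes whose counts showed one, which does not show that there is none.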
